A study of Mus musculus with 21 samples.

Results

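The epithelial differentiation transcription factors are DNA-binding regulators of squamous epithelium. The 10 genes described here (*Ehf*, *Elf3*, *Elf5*, *Grhl1*, *Grhl2*, *Grhl3*, *Klf4*, *Klf5*, *Trp63* and *Ovol1*) were selected by name with results of the same skin libraries already known, so their skin values are a description and carry no test. They are 10 of the 55491 genes in the expression table, and all 10 were among the 19101 genes with enough counts to be tested in skin. RNA-seq was performed on 9 skin libraries and 12 inguinal lymph node libraries of mice on a BALB/c background. *Ifnk* TG mice carry *Ifnk*, which encodes interferon kappa, under the keratin 14 promoter, which is active in basal keratinocytes. Skin was taken at 12 months from 3 WT samples without lesions, from 2 samples of nonlesional TG skin (NL) and from 4 samples of lesional TG skin (L). The skin groups were labelled as untreated. Lymph nodes were taken at 12 weeks of age from WT and *Ifnk* TG mice without treatment or after UVB at 250 mJ/cm2 on 3 days per week for 2 weeks, followed by 2 weeks of observation, with 3 libraries in each of these groups. For NL samples the paper names back skin and sites that match those of lesions. Lesions are placed by the paper on the face, the back and occasionally the extremities. The sex of the mice, the body site of each skin library and the animal behind each library are not stated. Differences of these kinds between groups therefore cannot be separated from the group itself. Skin libraries held between 40499078 and 56511276 counts and node libraries between 27599809 and 36428435.

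Most of these factors come from families that build the epidermis in steps. p63, the product of *Trp63*, maintains the basal layer and its commitment to a stratified fate, whereas Grainyhead-like and OVO-like factors and *Klf4* act as cells leave that layer and form the barrier. The epithelium-specific ETS factors ESE1, ESE2 and ESE3, products of *Elf3*, *Elf5* and *Ehf*, are found in differentiating keratinocytes and in glandular and simple epithelia.

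The transgene and the tissue were checked before the members. *Ifnk* (chromosome 4 from 35152056 to 35154005) had 0 counts in each WT library, 6 and 0 counts in NL replicates 2 and 3, and 14, 11, 5 and 8 counts in L replicates 4 to 7. It had 0 counts in all 12 node libraries, and it was not tested if transgene reads fall on this gene in the table. *Ifnk* overlaps *Mob3b* on the other strand. Basal keratinocyte genes were present in every skin library. *Krt14* stood at 1340, 1370 and 1220 CPM (counts scaled to library size) in WT replicates 8, 9 and 10, at 2380 and 1950 CPM in NL skin, and at 4670, 3930, 3900 and 1420 CPM in L skin. *Krt5* stood at 2740, 2480 and 2230 CPM in WT, 4480 and 4230 CPM in NL, and 3810, 3680, 3090 and 1770 CPM in L skin. L replicate 7 was thus the L library with the least of both keratins, and values of the members in that library are named below. WT replicate 10 held more RNA of a list of 10 mammary and simple epithelial genes than the rest of the WT group, with a summed level of 76.8 CPM against 6.09 and 8.86 CPM in WT replicates 8 and 9. In that list *Csn3*, a milk casein gene, had 823 counts in WT replicate 10 and 0 and 3 counts in WT replicates 8 and 9.

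Promoter sequences from 250 bases before to 50 bases after the start were matched in RefSeq (GRCm38.p6) for 5 of the 10 members, with 7 starts in all, for *Elf3*, *Elf5*, *Klf4*, *Grhl3* and *Grhl1*. Those of *Elf3* and *Elf5* are shown because these members, together with *Ehf*, had the largest differences in L skin, and the first start of *Grhl1* because it is the member that passed the test in lymph nodes. All 4 starts shown lie in an annotated exon of their gene. Capitals mark the KLF-type motif CACCC, read as GGGTG on the other strand.
Elf3, chr1:135258423-135258722, minus strand: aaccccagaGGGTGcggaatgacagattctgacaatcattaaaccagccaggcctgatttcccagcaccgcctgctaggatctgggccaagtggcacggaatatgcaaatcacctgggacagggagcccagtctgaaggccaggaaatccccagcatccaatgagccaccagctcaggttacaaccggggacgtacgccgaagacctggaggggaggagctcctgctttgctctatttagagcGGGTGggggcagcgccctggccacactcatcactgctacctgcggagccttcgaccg
Elf5, chr2:103411848-103412147, plus strand: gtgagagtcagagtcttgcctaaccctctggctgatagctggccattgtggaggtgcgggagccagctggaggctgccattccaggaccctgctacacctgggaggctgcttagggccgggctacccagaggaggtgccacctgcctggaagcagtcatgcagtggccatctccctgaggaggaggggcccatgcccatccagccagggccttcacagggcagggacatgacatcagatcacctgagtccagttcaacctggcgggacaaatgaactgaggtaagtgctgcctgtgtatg
Elf5, chr2:103423818-103424117, plus strand: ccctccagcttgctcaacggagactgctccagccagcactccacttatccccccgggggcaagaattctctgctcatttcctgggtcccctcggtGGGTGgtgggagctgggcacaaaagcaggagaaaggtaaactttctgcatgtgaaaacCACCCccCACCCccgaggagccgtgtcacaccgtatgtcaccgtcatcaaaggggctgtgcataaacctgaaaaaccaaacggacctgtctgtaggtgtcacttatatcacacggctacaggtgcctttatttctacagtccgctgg
Grhl1, chr12:24572037-24572336, plus strand: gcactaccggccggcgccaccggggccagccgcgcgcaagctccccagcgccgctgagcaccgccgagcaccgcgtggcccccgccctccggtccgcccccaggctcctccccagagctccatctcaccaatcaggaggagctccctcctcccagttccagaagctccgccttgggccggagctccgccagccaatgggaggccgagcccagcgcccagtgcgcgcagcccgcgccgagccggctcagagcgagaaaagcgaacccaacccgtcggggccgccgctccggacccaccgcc
CACCC was found on either strand in 4 of the 7 member promoters and in 57.5% of the 32851 promoters of the same length. The *Elf3* promoter holds it 2 times and the second *Elf5* promoter 3 times, and the other promoters shown do not hold it. The ETS-type motif CCGGAA (14.9% of all promoters), the Grainyhead palindrome AACCGGTT (0.146%) and the OVO core CCGTTA (2.76%) were in none of the 7. Each was searched on both strands, whereas the shorter ETS core GGAA was not searched. All of these are matches of letters in a short window and mark no site of binding. GC content was 59.0% for *Elf3*, 60.7% and 55.3% for *Elf5* and 75.3% for the first start of *Grhl1*, against a median of 52.7% over all promoters.

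The ETS factors had the largest differences among the members between L and WT skin. *Ehf* (ENSMUSG00000012350, chromosome 2 from 103263433 to 103303278), a repressor and activator of epithelial genes, stood at 5.91, 5.37 and 4.797 CPM in WT replicates 8, 9 and 10 and at 9.69 and 11.0 CPM in NL replicates 2 and 3. It reached 53.3, 64.3, 55.7 and 41.6 CPM in L replicates 4 to 7. These are bulk samples, in which fewer cells of a type and less RNA per cell cannot be told apart. The 3 groups did not overlap for *Ehf*, and it lay between WT and L skin in both NL libraries. The means were 5.36 ± 0.555 CPM in WT (SD, n = 3), 10.3 ± 0.918 CPM in NL (n = 2) and 53.7 ± 9.38 CPM in L skin (n = 4). These correspond to log2 fold changes of 3.32 (SE 0.17) for L against WT, 2.38 (SE 0.19) for L against NL and 0.95 (SE 0.18) for NL against WT. These comparisons share libraries in pairs, as they do for every member below.

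*Elf5* (ENSMUSG00000027186, chromosome 2 from 103411688 to 103450989), best known as a regulator of mammary alveolar cells and trophoblast, was low outside L skin. It stood at 0.661, 1.45 and 3.54 CPM in WT, at 1.24 and 1.84 CPM in NL, and at 28.5, 61.2, 28.8 and 39.1 CPM in L skin. NL and WT libraries overlapped, and every L library was far above both. The log2 fold change was 4.39 (SE 0.60) for L against WT, 4.68 (SE 0.73) for L against NL and −0.29 (SE 0.65) for NL against WT. The highest WT value was that of WT replicate 10, the library with casein and simple keratin RNA. Without that library the L against WT value was 5.22 and the NL against WT value turned to 0.54, and the part of those cells in the result was not tested. *Ehf* and *Elf5* lie 108409 bases apart on chromosome 2, with 3 annotated genes between them.

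*Elf3* (ENSMUSG00000003051, chromosome 1 from 135253575 to 135258568), an ETS factor of late keratinocyte differentiation and of simple epithelia, had few counts in WT and NL skin. It had 30, 47 and 73 counts in WT, 26 and 30 in NL, and 280, 251, 850 and 131 counts in L skin. On the CPM scale these were 0.684, 1.12 and 1.81 in WT, 0.497 and 0.736 in NL, and 5.10, 6.19, 18.7 and 2.36 in L skin. L libraries lay above all others, but they spread widely, and L replicate 7 was close to WT replicate 10. In log2 units *Elf3* differed by 2.75 (SE 0.72) for L against WT, 3.72 (SE 0.91) for L against NL and −0.97 (SE 0.86) for NL against WT. Without L replicate 6, the highest library, the values were 1.92 for L against WT and 2.89 for L against NL. As for *Elf5*, WT replicate 10 had the highest WT value. Over fits without 1 library *Elf3* ranged from 1.92 to 3.16 for L against WT and from −1.30 to −0.55 for NL against WT. A gene antisense to *Elf3*, *Gm26642*, had 0 to 16 counts in skin, and the use of strand in counting is not given in the sources used here.

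*Ovol1* (ENSMUSG00000024922, chromosome 19 from 5549136 to 5560646) encodes a zinc finger repressor that acts as keratinocytes leave the cell cycle. It stood at 32.0, 25.001 and 25.03 CPM in WT, at 37.2 and 41.8 CPM in NL, and at 81.6, 97.7, 136 and 107 CPM in L skin. As for *Ehf*, the groups were separate and NL lay between WT and L skin. For *Ovol1* the log2 fold change was 1.95 (SE 0.19) for L against WT, 1.42 (SE 0.21) for L against NL and 0.53 (SE 0.21) for NL against WT. *Gm31166*, a pseudogene on the opposite strand of *Ovol1*, had 2 to 391 counts in skin, against 1012 to 6189 for *Ovol1* itself.

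The Grainyhead-like factors, which control barrier formation and junction genes, differed less. *Grhl1* (ENSMUSG00000020656, chromosome 12 from 24572283 to 24617391), an activator of desmosomal cadherin genes, stood at 151, 122 and 122 CPM in WT, at 194 and 234 CPM in NL, and at 232, 273, 265 and 244 CPM in L skin. Every TG library was above every WT library for *Grhl1*, whereas NL and L skin overlapped. Its log2 fold change was 0.95 (SE 0.13) for L against WT, 0.70 (SE 0.14) for NL against WT and 0.24 (SE 0.14) for L against NL. *Grhl2* (ENSMUSG00000022286, chromosome 15 from 37233036 to 37363569), a regulator of E-cadherin and claudin genes, stood at 28.7, 23.1 and 19.2 CPM in WT, 31.3 and 34.2 CPM in NL, and 33.2, 44.3, 40.7 and 38.8 CPM in L skin. It had the same order of groups as *Grhl1*, with log2 fold changes of 0.73 (SE 0.15), 0.47 (SE 0.18) and 0.26 (SE 0.17) in the same 3 comparisons. *Gm16136*, antisense to *Grhl2*, had 553 to 1532 counts in skin against 775 to 2151 for *Grhl2*. Only gene spans were compared, so it was not tested if their exons overlap. If they do, reads counted without strand could not be told apart. *Grhl3* (ENSMUSG00000037188, chromosome 4 from 135541888 to 135573630), needed for closure of the epidermal barrier and for wound repair, stood at 36.8, 26.6 and 26.4 CPM in WT, 38.2 and 39.1 CPM in NL, and 49.99, 34.9, 59.0 and 34.5 CPM in L skin. L libraries of *Grhl3* overlapped with both other groups, and its log2 fold change for L against WT was 0.58 (SE 0.22).

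*Trp63* (ENSMUSG00000022510, chromosome 16 from 25683763 to 25892102), the regulator of the basal layer, was highest in NL skin. It stood at 198, 171 and 175 CPM in WT, at 234 and 288 CPM in NL, and at 209, 261, 228 and 191 CPM in L skin. NL was separate from WT, whereas L overlapped with both. For *Trp63* the log2 fold change was 0.53 (SE 0.16) for NL against WT, 0.29 (SE 0.14) for L against WT and −0.23 (SE 0.15) for L against NL.

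The Krüppel-like factors had overlapping values in L and WT skin. *Klf4* (ENSMUSG00000003032, chromosome 4 from 55527143 to 55532466), which is needed for the skin barrier, stood at 384, 229 and 225 CPM in WT, 374 and 416 CPM in NL, and 351, 332, 343 and 234 CPM in L skin. WT replicate 8 and L replicate 7 stood apart from their groups, and WT overlapped with both NL and L skin, whereas every L library was below both NL libraries. The log2 fold change of *Klf4* was 0.17 (SE 0.22) for L against WT, 0.50 (SE 0.26) for NL against WT and −0.33 (SE 0.25) for L against NL. *Klf5* (ENSMUSG00000005148, chromosome 14 from 99298691 to 99315036), a factor of proliferating basal cells, stood at 100, 66.2 and 65.2 CPM in WT, 119 and 114 CPM in NL, and 166, 113, 117 and 76.4 CPM in L skin. The spread of *Klf5* in L skin covered both NL libraries, and the log2 fold change was 0.61 (SE 0.26) for L against WT and 0.02 (SE 0.29) for L against NL. Over fits without 1 library its L against NL value ranged from −0.19 to 0.18. In L replicate 7 both Krüppel-like factors, like *Krt5* and *Krt14*, had the lowest value of the L group. The same held for *Ehf*, *Elf3*, *Grhl3* and *Trp63*, but not for the other members.

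**Figure D1:**
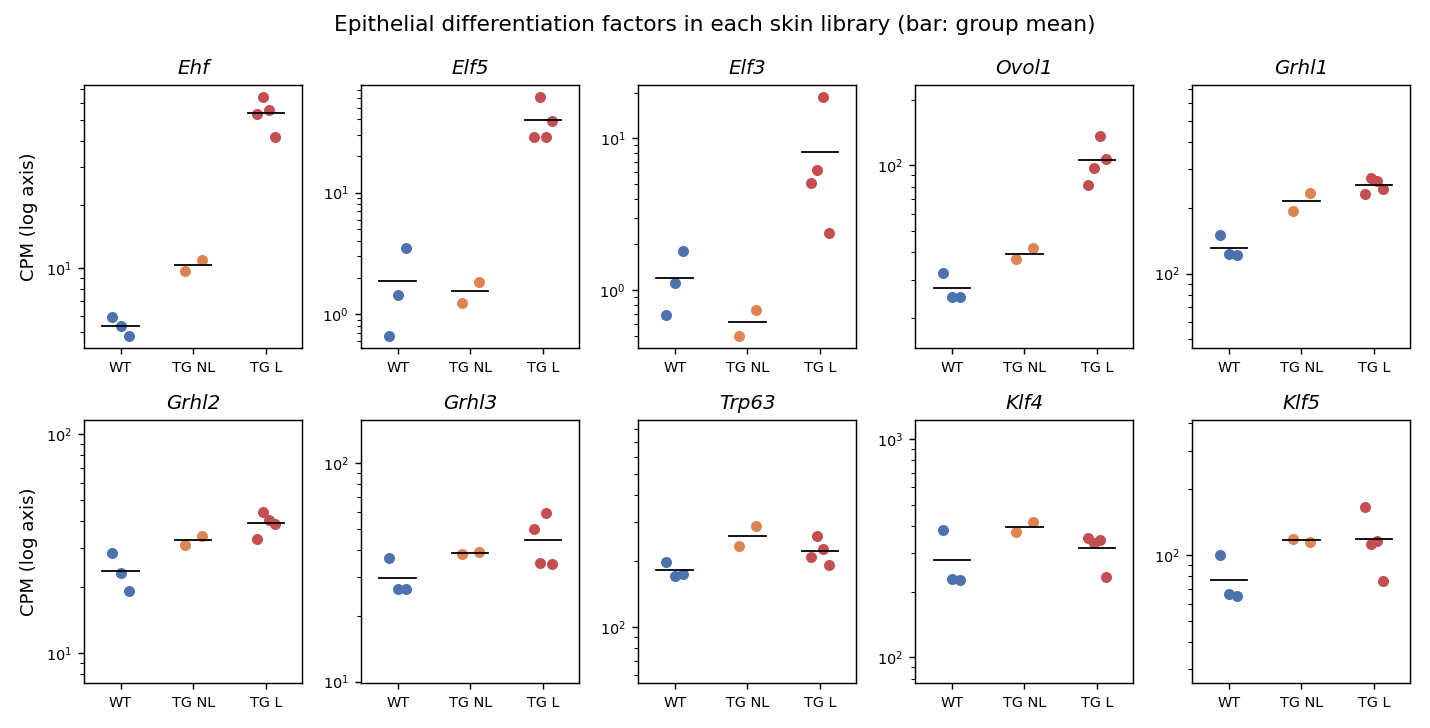
CPM of the 10 members in each of the 9 skin libraries on log axes, with 1 panel per gene, points for libraries and bars for group means. *Ehf*, *Elf5*, *Elf3* and *Ovol1* in L skin lie above every WT and NL library, with *Ehf* from 41.6 to 64.3 CPM in L skin against 4.797 to 5.91 CPM in WT skin.

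**Figure D2:**
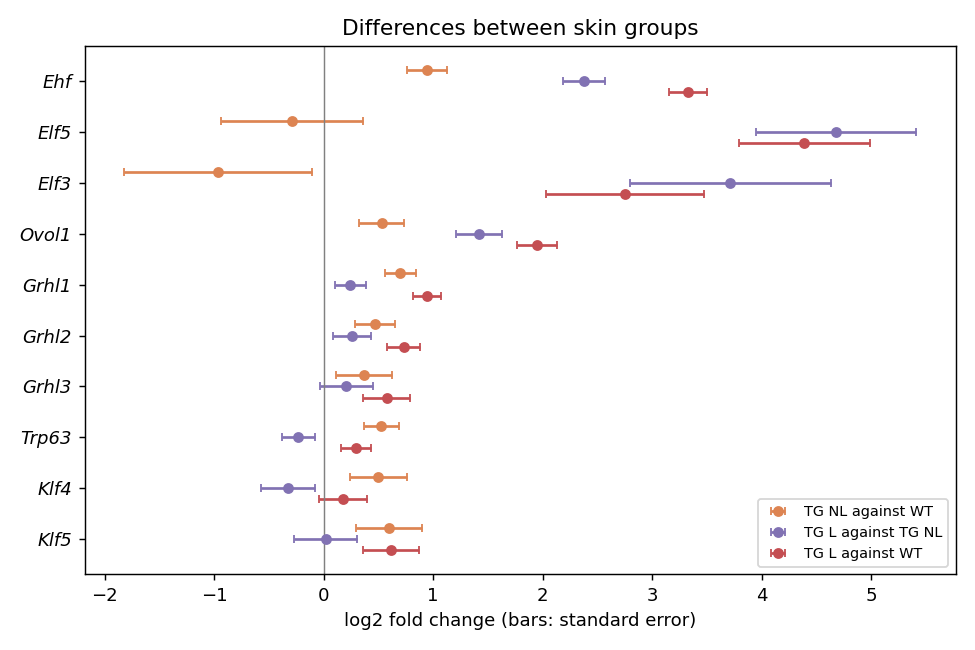
Log2 fold change of each member in the 3 skin comparisons, from edgeR's fit, with bars for the standard error. Values for L against WT run from 0.17 for *Klf4* to 4.39 for *Elf5*.

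Levels of different genes were compared per length, as TPM, in which counts are divided by exon length before they are scaled to the library. In WT skin *Klf4* was the most abundant member at 218 ± 67.3 TPM (SD, n = 3), followed by *Grhl1* at 56.7 ± 6.24, *Trp63* at 51.6 ± 3.58, *Klf5* at 35.4 ± 8.52, *Grhl3* at 25.6 ± 4.65 and *Ovol1* at 18.7 ± 2.48 TPM. *Grhl2* at 6.55 ± 1.22, *Ehf* at 2.30 ± 0.200, *Elf3* at 1.302 ± 0.628 and *Elf5* at 0.772 ± 0.618 TPM were lowest. Mean and SD reached those of the next member for *Grhl1* and *Trp63*, for *Klf5* and *Grhl3*, for *Grhl3* and *Ovol1*, and for *Elf3* and *Elf5*, so these neighbours did not differ beyond their spread. NL skin had the same order, with *Klf4* at 332.5 ± 2.12 TPM (n = 2) and *Elf5* at 0.669 ± 0.139 TPM, and there only *Elf3* and *Elf5* were within their spread. In L skin *Klf4* remained first at 248 ± 40.0 TPM (n = 4) and *Grhl1* second at 111 ± 17.2 TPM, and *Ovol1* came next at 74.6 ± 24.6 TPM, ahead of *Trp63* at 63.7 ± 8.18 TPM. *Ehf* at 23.1 ± 3.23 TPM and *Elf5* at 16.0 ± 5.23 TPM were there above *Grhl2* at 11.0 ± 1.97 and *Elf3* at 9.12 ± 9.14 TPM. Apart from *Klf4*, every neighbouring pair in L skin was within its spread.

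Counted over the members, 6 of 10 had an adjusted p under 0.05 and a higher level in L than in WT skin, namely *Ehf*, *Elf5*, *Elf3*, *Ovol1*, *Grhl1* and *Grhl2*. Of all 19101 tested genes 4386, or 23%, were higher by the same rule. The same 6 members had every L library above every WT library, as did 26% of all genes. Since the members were chosen with these results known, nothing is read from these counts. Their median log2 fold change was 0.84, against 0.06 over all genes. *Elf3* did not pass without WT replicate 8 (log2 fold change 2.47) or without WT replicate 9 (2.68).

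Against NL skin 4 members were higher in L skin at an adjusted p under 0.05, namely *Elf5*, *Elf3*, *Ehf* and *Ovol1*, where 13.2% of all genes were. These 4 also had every L library above every NL library, as did 24.7% of all genes. *Klf4* had every L library below both NL libraries, and the share of all genes with that order was not computed. Again nothing is read from the counts, and the median over the members was 0.25, against 0.03 over all genes. Only 2 members passed without NL replicate 2, when *Elf3* (3.45) and *Elf5* (4.42) did not, and 3 without NL replicate 3, when *Elf3* (4.03) did not. The count of all genes higher in L than in NL skin fell from 2519 to 810 without NL replicate 2 and to 657 without NL replicate 3.

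Between NL and WT skin edgeR called 0 of the 19101 genes, with 1465 at an unadjusted p under 0.05, and DESeq2 called 80. Among the members edgeR called 0 and DESeq2 called *Ehf* and *Grhl1*. For 7 of 10 members both NL libraries were above every WT library, as for 18.6% of all genes, and nothing is read from this count. The exceptions were *Elf3*, *Elf5* and *Klf4*. The median log2 fold change of the members was 0.51, and that of all genes was −0.00. Fibroblast, adipocyte and macrophage genes each had 0 of 8 positive values (medians −0.58, −0.46 and −0.67). Endothelial genes had 0 of 7 (−0.21), whereas 6 of 8 T cell genes were positive (0.30). The part of these cells in the result was not tested.

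The members were also set against keratinocyte genes of the same library. The 10 basal keratinocyte genes summed to 7710, 7240 and 6280 CPM in WT, 11300 in both NL libraries, and 10800, 9980, 8700 and 4220 CPM in L skin, with *Krt5* the most abundant except in L replicates 4 to 6, where it was *Krt14*. The 14 suprabasal genes, led by *Krt10*, summed to 12300, 10400 and 9780 CPM in WT, 18400 and 18100 in NL, and 24500, 17000, 18600 and 8760 CPM in L skin. No gene of either list was at 0 in any skin library. In NL against WT skin all 10 basal genes (median log2 fold change 0.63) and all 14 suprabasal genes (0.73) had positive values, and none of them passed the test. In L against WT skin the medians of the lists were −0.10 and 1.41.

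Each member was then expressed as its log2(CPM + 0.5) minus the mean of the same quantity over a list. Relative to the basal list, the NL minus WT difference was −0.00 for *Ovol1*, 0.01 for *Klf4*, −0.01 for *Trp63*, −0.06 for *Grhl2*, 0.09 for *Klf5*, −0.15 for *Grhl3* and 0.17 for *Grhl1*. It was 0.36 for *Ehf*, −0.58 for *Elf5* and −1.10 for *Elf3*. Relative to the suprabasal list it was 0.19 for *Ehf*, 0.00 for *Grhl1*, −0.08 for *Klf5*, −0.15 for *Klf4*, −0.17 for *Ovol1*, −0.18 for *Trp63*, −0.22 for *Grhl2*, −0.32 for *Grhl3*, −0.75 for *Elf5* and −1.26 for *Elf3*. Both NL libraries of *Ehf* lay above every WT library with either list as reference, and those of *Grhl1* with the basal list alone. In L minus WT skin *Ehf* kept 3.30, *Elf5* 4.28, *Elf3* 2.14 and *Ovol1* 2.01 relative to the basal list. Relative to the suprabasal list the differences of group means were 1.69, 2.68, 0.53 and 0.41.

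By library the last 2 of these did not separate L from WT skin. *Elf3* relative to the suprabasal list was −7.20, −6.72, −5.04 and −7.09 in L replicates 4 to 7 against −7.66, −7.09 and −6.39 in WT replicates 8 to 10, so only L replicate 6 was above every WT library. *Ovol1* was −3.33, −2.84, −2.21 and −1.86 in L skin against −2.88, −3.11 and −2.92 in WT skin, and L replicate 4 was below every WT library. *Ehf* and *Elf5* had all 4 L libraries above WT with either list. The other 6 members had means above WT relative to the basal list, from 0.30 for *Klf4* to 1.04 for *Grhl1*, and below it relative to the suprabasal list, from −0.56 for *Grhl1* to −1.30 for *Klf4*. For these 6 members the sign of the difference of means thus changed with the list taken as reference. By library only *Grhl2* and *Klf5* had all 4 L libraries above WT with the basal list and all 4 below it with the suprabasal list. L replicate 7 of *Grhl1* lay within WT with the suprabasal list, and *Grhl3*, *Klf4* and *Trp63* had 3, 2 and 3 of 4 L libraries above WT with the basal list, with L replicate 4 of *Trp63* below it.

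**Figure D3:**
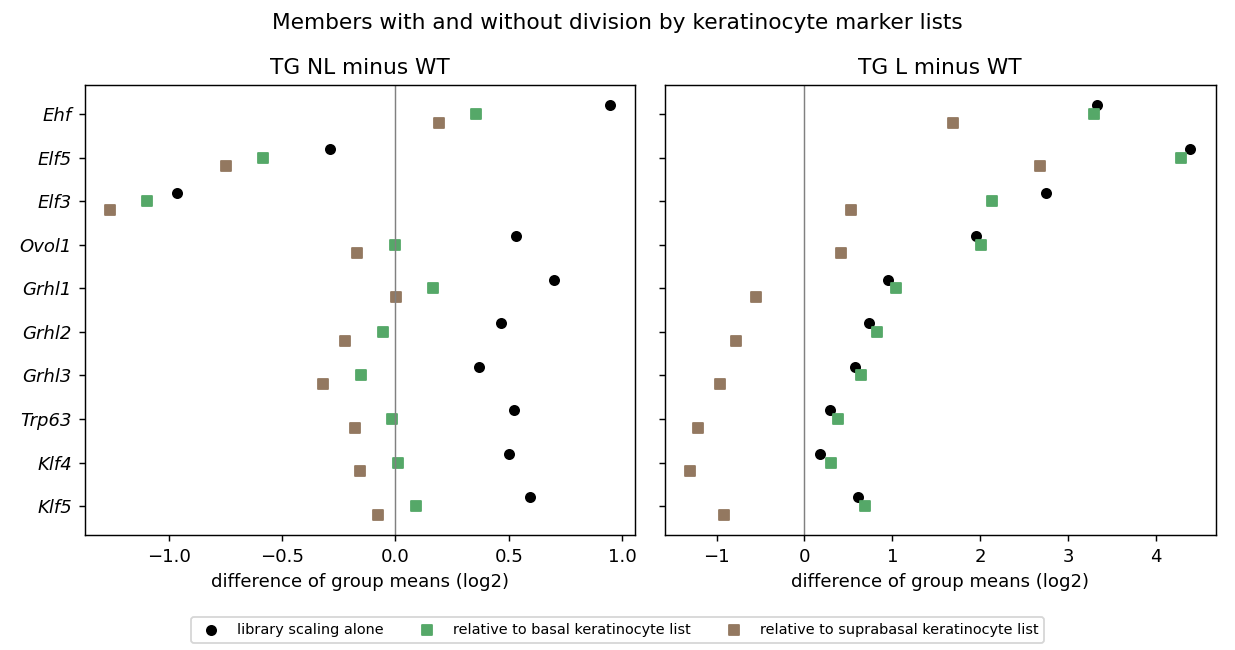
Difference of each member in log2 units for NL minus WT (left) and L minus WT skin (right), from edgeR's fit after library scaling (circles) and relative to the basal or suprabasal keratinocyte list (squares). Relative to the suprabasal list *Elf5*, *Ehf*, *Elf3* and *Ovol1* have differences of means of 2.68, 1.69, 0.53 and 0.41 in L skin, with L and WT libraries overlapping for *Elf3* and *Ovol1*, and the other 6 members are below 0.

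Markers of hair follicles and of other cells also differed between L and WT skin, and their part in the result for the members was not tested. The hair shaft list summed to 7.89, 6.43 and 8.06 CPM in WT, 10.4 and 13.3 in NL, and 1980, 6110, 4930 and 6320 CPM in L skin. All 10 tested hair shaft genes rose in L against WT skin, with a median log2 fold change of 12.12 when the 4 genes at the floor of 3 counts are set at their bound. *Krt32* was the most abundant of them in each WT and NL library and *Krt35*, *Krt33a*, *Krt83* and *Krt83* in L replicates 4 to 7, and 3, 3 and 2 of the list were at 0 in WT replicates 8, 9 and 10. The inner root sheath list, led by *Trps1* in WT and NL skin, by *Tchh* in L replicates 4 to 6 and by *Krt71* in L replicate 7, summed to 32.0, 25.1 and 32.2 CPM in WT, 27.8 and 38.3 in NL, and 5350, 11200, 15500 and 21300 CPM in L skin, and 7 of its 8 genes rose. The stress keratins *Krt6a*, *Krt6b*, *Krt16* and *Krt17* all rose, and summed to 656, 749 and 469 CPM in WT, 1210 and 1240 in NL, and 3890, 3650, 5380 and 1760 CPM in L skin. L replicate 6, the highest library for *Elf3*, was also highest for these keratins, and L replicate 7 was lowest for both.

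Simple epithelial and glandular genes bear on *Elf3*, *Elf5* and *Ehf*, which such cells express. The mammary and simple epithelial list summed to 4.51 and 7.24 CPM in NL and to 14.5, 26.4, 21.6 and 24.2 CPM in L skin. Of its 8 tested genes 4 had positive values in L against WT (median −0.50) and 1 in NL against WT skin (median −3.91). In L against NL skin 7 were positive, with a median of 2.98 when the 1 gene at the floor is set at its bound. *Krt19*, most abundant in WT replicates 8 and 9, fell by 2.87 in L against WT skin (SE 0.50, adjusted p = 0.00232) in all 4 L libraries, and its log2 fold change was −1.90 without WT replicate 10, where *Csn3* was most abundant. Of its 10 genes 4, 4, 0 and 1 were at 0 in L replicates 4 to 7. The sebaceous list, led by *Scd1*, summed to 3230, 3450 and 2610 CPM in WT, 4100 and 3300 in NL, and 2890, 5490, 5170 and 4950 CPM in L skin, with 4 of 10 genes higher and 1 lower by the test against WT. The count of higher sebaceous genes was 1 without WT replicate 8 or 10, 2 without L replicate 5 or 7 and 6 without L replicate 4, and the lower one was lost in 7 of 9 fits without 1 library. Skeletal muscle genes, led by *Acta1* except in L replicate 6, where *Myh1* led, summed to 28800, 35700 and 40100 CPM in WT, 27200 and 31600 in NL, and 7410, 27.4, 391 and 1600 CPM in L skin, and 5 of 10 fell. None of these 10 was called without L replicate 6 or 7 or WT replicate 8, 9 or 10, 1 and 2 without NL replicates 2 and 3, and 10 and 9 without L replicates 4 and 5. The melanocyte list, led by *Mitf* in WT and NL skin and by *Dct* in L skin, summed to 40.8, 39.1 and 32.6 CPM in WT, 29.5 and 34.6 in NL, and 141, 137, 156 and 635 CPM in L skin, with 6 of 7 genes higher by the test.

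**Figure D4:**
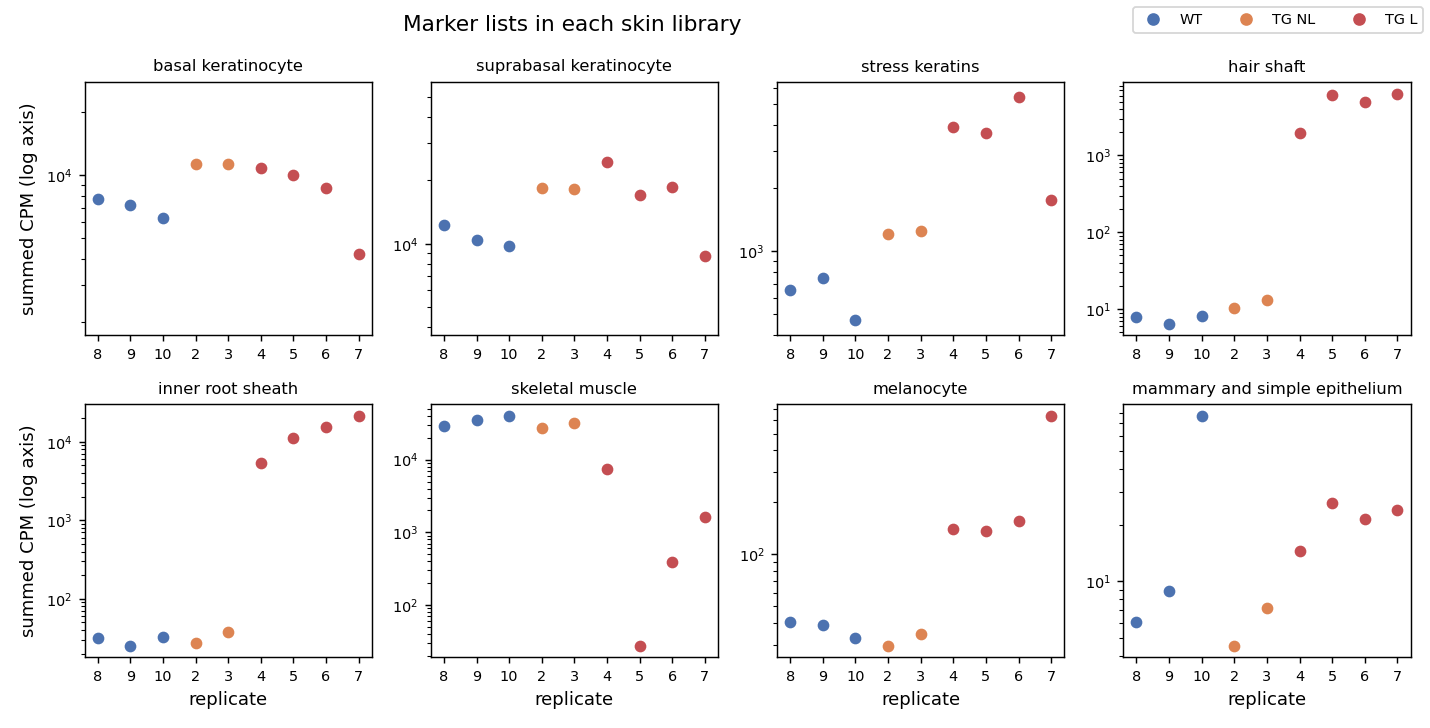
Summed CPM of 8 marker lists in each skin library, on log axes, with libraries ordered by group. Hair shaft genes rise from 6.43 to 13.3 CPM in WT and NL skin to between 1980 and 6320 CPM in L skin, and L replicate 7 has the lowest basal keratinocyte sum of all libraries, 4220 CPM.

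In L against WT skin 0 of 8 adipocyte genes rose and 4 fell, 0 of 8 fibroblast genes rose and 2 fell, and 0 of 7 endothelial genes rose and 5 fell. T cell genes rose in 5 of 8 cases, neutrophil genes in 5 of 8, and type I interferon response genes in 3 of 12, with none lower. Of the 8 macrophage and 5 B cell genes tested none passed, and 1 of 8 mammary and simple epithelial genes rose and 1 fell. The stress keratin, suprabasal and basal lists held 4, 8 and 2 genes that rose and 0, 0 and 2 that fell. Several of these counts depended on 1 library. Over the fits without 1 library the genes called lower ranged from 2 (without WT replicate 8 or 9) to 7 (without L replicate 5) for adipocytes, from 1 (without NL replicate 2, L replicate 4 or WT replicate 9 or 10) to 3 (without L replicate 7) for fibroblasts, and from 3 (without L replicate 4 or WT replicate 8 or 10) to 7 (without L replicate 6) for endothelium. Those called higher ranged from 3 (without WT replicate 10) to 6 for neutrophils, from 1 (without WT replicate 8) to 4 for the interferon response, and from 0 (without WT replicate 8 or 9) to 4 (without WT replicate 10) for the mammary and simple epithelial list. Basal genes called higher ranged from 0 (without WT replicate 10) to 4 (without L replicate 7), and 1 of the 2 lower ones was lost in 6 of 9 fits.

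The relatives of the members did not move as a block in L against WT skin, where 23% of all genes were higher and 20.2% lower by edgeR's quasi-likelihood test with Benjamini-Hochberg adjustment. Of 21 tested ETS relatives 5 rose and 1 fell, with a median log2 fold change of 0.12, and 3 rose without WT replicate 10. *Etv4*, a factor downstream of FGF signals, rose most, by 3.47 (SE 0.30, adjusted p = 0.000132), with all 4 L libraries above WT, and every fit without 1 library called it. *Fli1*, an ETS factor of endothelium and blood cells, fell by 0.53 (SE 0.16, adjusted p = 0.0236) with all 4 L libraries below WT, and it did not pass without WT replicate 8 (adjusted p = 0.0708), 9 (0.0539) or 10 (0.0609). Of 14 Krüppel-like relatives 3 rose and 4 fell, with a median of −0.24, but only 1 rose without NL replicate 2 or 3, L replicate 4 or 5 or WT replicate 9, and 2 in the other fits without 1 library. *Klf14*, an imprinted gene of the family, fell in all 4 L libraries, with a log2 fold change of −3.62 (SE 0.89, adjusted p = 0.0124), of −4.96 without L replicate 7 and of −2.80 without WT replicate 8. *Klf9*, a factor induced by glucocorticoids, fell by 1.84 (SE 0.20, adjusted p = 0.000303) in all 4 L libraries, unlike *Klf4* and *Klf5*. *Klf1* rose by 1.94 (SE 0.62, adjusted p = 0.0326), with at most 13 counts in any skin library. *Klf3* rose by 0.62 (SE 0.20, adjusted p = 0.0367), with 3 of 4 L libraries above WT. These calls were lost in 3 of 5 and 7 of 9 fits without 1 library. Of the 3 Grainyhead relatives *Tfcp2* fell by 0.66 (SE 0.19, adjusted p = 0.0218) in all 4 L libraries, but it did not pass without WT replicate 8 (adjusted p = 0.0678), 9 (0.0518) or 10 (0.0527). *Tfcp2l1* was at −0.59 (SE 0.28, adjusted p = 0.122), with 3 of 4 L libraries below WT, and *Ubp1* at 0.00 (SE 0.11, adjusted p = 0.984), with a sign that changed with the normalization. *Trp53*, the relative of *Trp63* that responds to DNA damage, rose by 0.81 (SE 0.16, adjusted p = 0.00367) in all 4 L libraries. *Trp73* (0.74, SE 0.30, adjusted p = 0.0766, 3 of 4 L libraries above WT) and *Ovol2* (−0.22, SE 0.23, adjusted p = 0.458, 3 of 4 below) did not pass, but *Trp73* passed without L replicate 7 (0.92, adjusted p = 0.0208, with 0.0208 to 0.218 over fits without 1 library).

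Regulators and reported targets in the same tissue were counted from lists chosen with the members and earlier results of these data known, so nothing is read from the counts. For each gene named next all 4 L libraries lay on the same side of WT. Of 20 other epidermal transcription factors 13 rose and 0 fell, with a median of 0.93. *Dlx3*, a homeobox factor of hair and suprabasal cells, rose by 3.92 (SE 0.45, adjusted p = 0.000427) and *Foxn1*, a factor of hair shaft differentiation, by 3.04 (SE 0.37, adjusted p = 0.000528). Of 16 genes reported as p63 targets 11 rose and 2 fell (median 0.61), the latter being *Satb1*, a chromatin organiser, by 1.79 (SE 0.25, adjusted p = 0.000838), and *Dst*, a hemidesmosome component, by 1.40 (SE 0.28, adjusted p = 0.00445). Of 15 epithelial junction and splicing genes, several of them reported targets of Grainyhead-like factors, 10 rose and 0 fell (median 0.89), with *Cldn4*, a tight junction claudin, at 1.95 (SE 0.13, adjusted p = 5.57e-05). The count of 11 was 6 for the p63 targets without WT replicate 9 or 10. Of 6 mesenchymal regulators 3 fell (2 without WT replicate 8 or 10), among them *Zeb1*, a repressor of E-cadherin, by 1.06 (SE 0.10, adjusted p = 0.000212), and fibroblast genes are given above beside them. Over these 8 lists, with genes that stand in more than 1 list counted once, 51 of 95 genes passed the test, 40 higher and 11 lower in L skin. In NL against WT skin edgeR called none of them, and the medians were 0.70 for the other epidermal factors, 0.62 for the p63 targets and 0.69 for the junction genes, near the 0.63 of the basal keratinocyte list.

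For each member the tested gene with the most similar profile over the 9 skin libraries was found, by the root mean square (RMS) difference of log2 CPM after centring each gene on its mean. *Grhl1* was followed most closely by *Esrp1*, an epithelial splicing factor, with an RMS difference of 0.06, and *Grhl2* by *Kazn* at 0.09. *Trp63* was nearest to *Rab40c* (0.08), *Klf5* to *Zfp772* (0.11), *Klf4* to *Tbc1d2* (0.11), *Grhl3* to *Ly6e* (0.13) and *Ovol1* to *Fam83c* (0.14). For the ETS factors it was 0.23 for *Ehf* and *Slc39a2*, 0.40 for *Elf5* and *Chil1*, and 0.48 for *Elf3* and *Ang2*. The RMS difference grows with the range of a gene, which was 3.73 log2 units for *Ehf*, 6.44 for *Elf5* and 5.12 for *Elf3* against 0.75 for *Trp63* to 1.35 for *Klf5* among the Grainyhead-like, Krüppel-like and p63 genes. These values therefore do not rank the members by how closely they were followed. Among the members the closest pair was *Grhl1* and *Grhl2* at 0.14, followed by *Klf4* and *Trp63* at 0.20, and the neighbouring genes *Ehf* and *Elf5* differed by 1.13. Similarity over 9 libraries is a description of these samples and says nothing of shared control.

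Lymph nodes, which were not used to choose the members, held little of their RNA relative to WT skin, except for that of *Ehf*. Group means of *Ehf* in nodes ran from 1.59 to 4.25 CPM, against 5.36 CPM in WT skin. Those of *Grhl1* ran from 1.70 to 3.25 CPM, against 132 CPM in WT skin. B cell genes summed to between 1240 and 2400 CPM in each node library and T cell genes to between 2460 and 3160 CPM, whereas *Krt5* had 0 to 2 counts. *Elf3*, *Elf5*, *Grhl3* and *Ovol1* had at most 11 counts in any node library and were below the expression filter, and the other 6 members were tested among 16173 genes. *Ehf* had 39 to 230 counts, with the highest value in TG replicate 5 (6.53 CPM), the library with the lowest B cell sum. *Klf4* had 24 to 77 counts, and *Grhl2*, *Klf5* and *Trp63* at most 19.

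*Grhl1* was the only member called in nodes, and only for UVB in WT mice. It stood at 1.87, 1.88 and 1.35 CPM in WT replicates 1 to 3 and at 3.45, 3.09 and 3.22 CPM in WT replicates 7 to 9 after UVB. All 3 irradiated libraries were above all 3 others. The share of all genes separated in this way was not computed for nodes, so nothing is read from this order. The log2 fold change was 0.93 (SE 0.22), with an adjusted p of 0.0364 from edgeR's quasi-likelihood test with Benjamini-Hochberg adjustment. By the same rule 2.92% of all genes were higher after UVB in WT nodes, and 1 of the 6 tested members was.

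This call of *Grhl1* was fragile. With all libraries kept, its adjusted p ranged from 0.00220 with DESeq2 to 0.0655 without the expression filter. It passed in 4 of 12 fits without 1 library, and its log2 fold change lay between 0.77 and 1.01 in all 12. The adjusted p was 0.0704, 0.0715 and 0.156 without WT replicates 1, 2 and 3, 0.0534 and 0.0597 without TG replicates 4 and 6, and 0.0715, 0.143 and 0.0909 without irradiated WT replicates 7, 8 and 9. The count of all genes higher after UVB, 472, moved by more than 1.5 times in each of these 12 fits. It was 129, 96 and 3 without WT replicates 1 to 3, 182, 301 and 148 without TG replicates 4 to 6, 281, 0 and 21 without irradiated WT replicates 7 to 9, and 888, 296 and 1429 without irradiated TG replicates 10 to 12.

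In TG nodes *Grhl1* stood at 1.62, 2.04 and 1.82 CPM without treatment and at 2.73, 2.65 and 2.91 CPM after UVB. The irradiated libraries were again above the others, with a log2 fold change of 0.60 (SE 0.22, adjusted p = 0.433). As in WT nodes, nothing is read from this order. The UVB response of *Grhl1* in TG nodes minus that in WT nodes was −0.34 (SE 0.31, adjusted p = 0.857), so a difference between genotypes was not shown. The log2 fold change of *Grhl1* in TG against WT nodes was 0.10 (SE 0.22, adjusted p = 1) without UVB and −0.24 (SE 0.22, adjusted p = 0.844) after it. B cell genes summed to 1930, 2100 and 2320 CPM in WT nodes and 2290, 1880 and 2210 CPM in irradiated WT nodes, and T cell genes to 3090, 3160 and 3090 against 2460, 2730 and 2790 CPM. *Lck* was the most abundant T cell gene, and in these WT libraries *Ms4a1* was the most abundant B cell gene except in replicate 3, where it was *Cd79a*. No gene of either list was at 0.

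Other lists had few or no calls after UVB in WT nodes and are given as sums. Fibroblast genes, led by *Dcn* in WT replicates 1 and 2 and by *Col1a2* in the other WT libraries, summed to 73.5, 70.3 and 52.7 CPM without UVB and 42.5, 15.5 and 16.5 CPM after it, with 0 of 8 positive and a median log2 fold change of −1.37. Endothelial genes, led by *Pecam1*, summed to 288, 274 and 324 against 223, 199 and 237 CPM, with 0 of 7 positive, and 0, 2 and 1 of them were at 0 in irradiated WT replicates 7 to 9. Type I interferon response genes, led by *Irf7*, summed to 238, 858 and 518 against 131, 153 and 376 CPM, with overlapping groups, 0 of 12 positive, a median of −1.56 and 0 called. A single fibroblast, endothelial and T cell gene each was called lower, and each of these calls was lost without WT replicate 1 or 3 or irradiated WT replicate 8 or 9, among other libraries. Other fits without 1 library called up to 4 fibroblast, 2 endothelial and 4 T cell genes lower. The adipocyte, mesenchymal regulator and junction lists also had 1 gene each called lower. In the basal keratinocyte, p63 target and other epidermal factor lists 1 gene each was called higher. Each of these further calls was lost without WT replicate 3 or irradiated WT replicate 8 or 9. In TG nodes, where the log2 fold change of *Grhl1* was 0.60, fibroblast genes were again 0 of 8 positive (median −0.85), whereas 2 of 7 endothelial genes (−0.03) and 12 of 12 interferon response genes (1.93) were positive, and none was called. The part of all these cells and genes in the result for *Grhl1* was not tested.

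The other 5 members tested in nodes did not pass for UVB in WT mice. The log2 fold change was −0.69 for *Ehf* (SE 0.35, adjusted p = 0.232), −0.70 for *Klf4* (SE 0.31, adjusted p = 0.169) and −1.21 for *Grhl2* (SE 0.61, adjusted p = 0.222). It was 0.60 for *Klf5* (SE 0.61, adjusted p = 0.563) and 0.97 for *Trp63* (SE 0.75, adjusted p = 0.430). All 3 irradiated WT libraries of *Klf4* were below the others, from 0.873 to 1.16 CPM against 1.60 to 1.93 CPM. Nothing is read from this order, since the share of all genes so separated was not computed. In the other node comparisons edgeR called 0 of all 16173 genes and thus no member. The counts at an unadjusted p under 0.05 and by DESeq2 were 1507 and 137 for UVB in TG mice, 549 and 2 for TG against WT without UVB, 1131 and 19 after UVB, and 881 and 8 for the interaction. Without irradiated TG replicate 12 edgeR called 236 genes for UVB in TG mice, 170 of them higher and none of them a member. Every other fit without 1 library gave 0 to 2 calls in these comparisons.

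**Figure D5:**
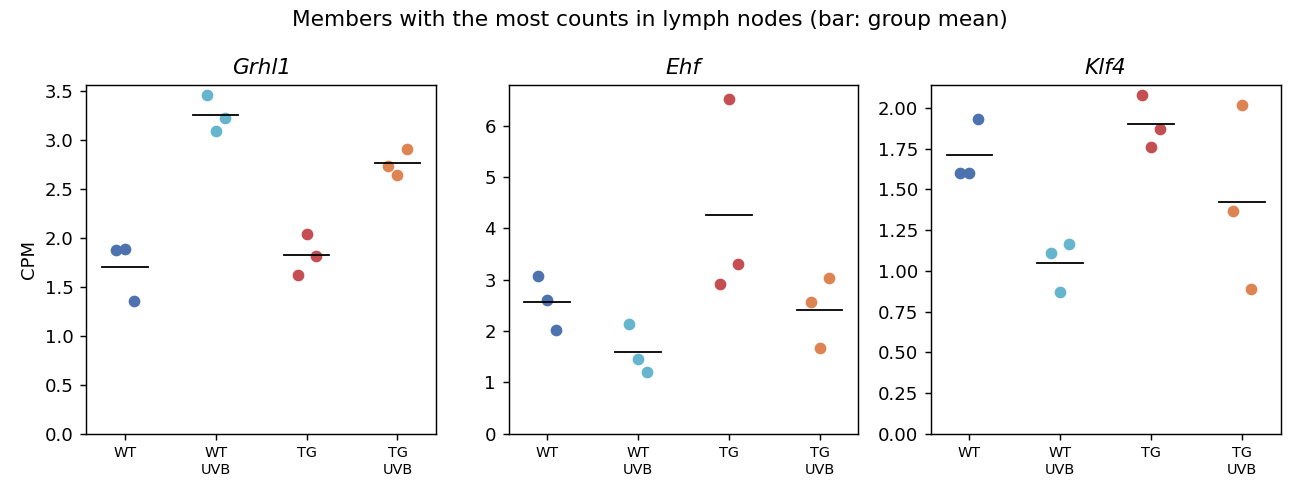
CPM of *Grhl1*, *Ehf* and *Klf4* in each of the 12 lymph node libraries, with points for libraries and bars for group means. *Grhl1* lies between 2.65 and 3.45 CPM in irradiated nodes of both genotypes and between 1.35 and 2.04 CPM in the others.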

How the data were processed

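The authors deposited RSEM expected counts per gene (GRCm38), already rounded to whole numbers. The submitters' processing notes name cutadapt 4.8, FastQC 0.11.8, STAR 2.7.8a, RSEM 1.3.3 and MultiQC 1.20. The annotation release is not given in the sources used here. GENCODE M21 gave positions and exon lengths, and RefSeq gave promoters.

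In R 4.3.3, edgeR 4.0.16 filtered genes by group (filterByExpr, minimum count 10, minimum total 15) and applied TMM scaling. Skin and nodes each had 1 joint fit by its robust quasi-likelihood method, and p-values were adjusted by Benjamini-Hochberg across every tested gene (threshold 0.05). Standard errors derive from the F statistic. Groups with no library above 3 counts were set at a floor of 3, between 5.31e-06% and 7.41e-06% of skin libraries and between 8.24e-06% and 1.09e-05% of node libraries, which covers counting error only. Alternatives were DESeq2 1.42.0, RLE scaling, other filters, fits of 2 groups, no robust estimation, hair keratins left out, keratinocyte lists as reference, and each library left out. The code was tested on simulated data. Its first criterion, which covered 2-fold and 4-fold changes, was missed in skin, where most 2-fold changes were not called, and it was then limited to 4-fold changes.

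The members and lists were chosen with earlier results of these data known. Named genes are the members, their nearest genes, lists of up to 4 genes, and in longer lists the 2 called genes that rose most and the 2 that fell most in L against WT skin, with *Krt14*, *Krt5* and *Ifnk* as checks. Some genes covered by this rule were left out of the text after their values were seen, and *Csn3*, overlapping genes and the most abundant gene of each list were added to it. Library names separate the samples, but no source says which animals they came from, so p-values measure the spread between samples.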

Additional observations from a re-analysis of the deposited data

Results flagged for a closer look

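Groups of 4 libraries were searched for a library far from the other 3, by the gap to its nearest neighbour divided by the range of the group. Only L skin has 4 libraries, and 36 such tests were made there, for 10 members and 26 lists. Chance places about 1 in 20 groups above the critical value for 4 libraries, and 4 were above it. The ratio was 0.838 for *Klf4*, with L replicate 7 at 234 CPM against 332 to 351 CPM in the others. For the melanocyte list it was 0.963, with L replicate 7 at 635 CPM against 137 to 156 CPM. For the adipocyte list it was 0.874, with L replicate 5 at 832 CPM against 3900 to 4340 CPM. For the neutrophil list it was 0.843, with L replicate 4 at 573 CPM against 65.4 to 145 CPM.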

How the results depend on the processing

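The members were chosen with results of the same skin libraries known, so their counts below describe the fits and lend no support to the choice. The counts of 6 members called between L and WT skin and 4 between L and NL skin were the same under RLE scaling, both other filters, fits of 2 groups alone, no robust estimation and hair keratin genes left out. DESeq2 called 7 and 4, with *Grhl3* added between L and WT skin. Without 1 library the counts ranged from 5 to 8 and from 2 to 4. Between L and WT skin *Grhl3* was also called without L replicate 5, L replicate 7 or WT replicate 8. *Klf5* was called there without L replicate 7 or WT replicate 8. Between NL and WT skin DESeq2 called 2 members in place of 0, and the count was 0 in every fit without 1 library. In nodes the count was 1, fell to 0 without the expression filter, and ranged from 0 to 1 without 1 library. Listed genes called between L and WT skin numbered 51, from 45 to 51 over settings and from 36 to 51 without 1 library. An alternative chosen after seeing the data left out WT replicate 10 and L replicate 7 together and gave 6, 4 and 0 members and 45 listed genes. Of all genes 4782 were called between L and NL skin and 3156 when only these groups were fitted. Between NL and WT skin 0 were called, 80 with DESeq2 and 1 when only these groups were fitted. For UVB in WT nodes 805 were called, 2002 with DESeq2 and 2431 when only these groups were fitted. Relative to the suprabasal list the L against WT values of *Grhl1* and *Grhl2* turned to −0.56 and −0.77. *Ubp1*, at 0.00, was −0.0271 with DESeq2, −0.0268 with RLE, −0.0163 without the filter, −0.0469 with at least 10 counts in every library and −0.0589 with 2 groups alone. Without NL replicate 3, L replicate 5 or WT replicate 9 it was −0.0117, −0.0613 and −0.0861, and it reached 0.0496 without WT replicate 10. *Grhl1* in TG against WT nodes without UVB ranged from −0.0403 without WT replicate 3 to 0.180 without WT replicate 2. Where these values changed, the cause was not tested.

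No paired analysis was possible because the labels number the libraries separately and the groups share no replicate number. NL skin has 2 libraries, and a fit without 1 of them assumes that the remaining library varies like the other groups. *Elf3* and *Elf5* in WT and NL skin, and all members in nodes except *Ehf*, *Grhl1* and *Klf4*, rest on few counts, so differences there are imprecise. Most simulated 2-fold changes in skin were not called, so the log2 fold change and SE of a member describe its difference better than a missing call does.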
